A study of Mustela putorius furo with 2 samples.

Results

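The 4 genes GFAP, CD44, ALPK1 and SLC14A1 were followed through single-nucleus RNA-seq of ferret cortex. They were selected on measured values of these same libraries, namely the ratio of levels between bands in astrocyte nuclei or a place among the leading genes of an astrocyte group, so their band differences are given as descriptions and support nothing. They are 4 of 28156 features in the deposited tables, and each was matched by symbol to 1 row (ENSMPUG00000008874, ENSMPUG00000011692, ENSMPUG00000008471 and ENSMPUG00000000989). Nuclei came from frozen somatosensory cortex and were captured in droplets, and 2 libraries were deposited, 1 from the upper band and 1 from the deeper band of the cortex. The sample titles call these libraries replicates 1 and 2, which conflicts with the different regions in their labels, and the regions were followed here. Both carry the genotype label DCX knockout, although the series text speaks of a knockdown, and DCX encodes doublecortin, a microtubule-binding protein whose loss leaves a band of misplaced neurons or a smooth cortex. The labels used here give no age, sex, allele or number of animals, and wild-type tissue was not analysed here. With 1 library per band no test was possible, and the effects of band, animal and library preparation cannot be told apart.

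Astrocytes take up glutamate, buffer potassium and water, and change their gene expression with position and injury. GFAP is the intermediate filament protein of the astrocyte cytoskeleton, is abundant in astrocytes of white matter and of the pial surface, and rises in reactive astrocytes. CD44 is a surface receptor for hyaluronan and osteopontin and is found on fibrous astrocytes. ALPK1 is an alpha-kinase that senses bacterial sugar nucleotides in the cytosol and phosphorylates TIFA, which leads to NF-kB signalling. SLC14A1 is the urea transporter UT-B, found in red blood cells and astrocytes.

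The upper-band library held 7151 barcodes and 66253015 UMIs (unique molecular identifiers, each standing for 1 captured RNA molecule), with a median of 8530 per barcode, and the deeper-band library held 9694 barcodes, 78352064 UMIs and a median of 6444. After filters 6291 and 8189 nuclei were kept. The targeted gene, DCX, had 4141 and 4174 UMIs in them, which does not check the genotype because the labels do not say which part of the gene was changed. The libraries shared 24 barcode sequences, and none among the 1193 astrocyte-like nuclei. Nuclei were called astrocyte-like from markers that did not include the 4 genes, which gave 387 upper-band nuclei (6.15% of those kept) with a median of 2801 UMIs and 806 deeper-band nuclei (9.84%) with a median of 2419.5. All 13 astrocyte markers were seen in both libraries, and their summed level was 18619 and 18834 CPM (the usual depth-scaled count, here UMIs relative to all UMIs of the same nuclei). SLC1A2, the main glutamate transporter, was seen in 100% and 99.8% of these nuclei.

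Markers of other cell types were also seen in the astrocyte-like nuclei, and some of their summed levels differed between bands. The highest sums were those of the newly formed oligodendrocyte list (2349 and 2197 CPM, GPR17 at 0) and the oligodendrocyte precursor list (360 and 412 CPM, GPR17 at 0). The oligodendrocyte list (11 genes, 10 seen in each library) summed to 162 CPM in the upper and 231 CPM in the deeper band, against 13530 and 13842 CPM in oligodendrocyte-like nuclei. Inhibitory neuron markers summed to 261 and 185 CPM (SLC32A1 at 0), excitatory markers to 165 and 143 CPM (NEUROD2 at 0), microglia markers to 217 and 267 CPM, and endothelial markers came to 18 and 60 UMIs (CLDN5 and CDH5 at 0). The part these markers play in the results was not tested. Values without the nuclei highest in other-class markers are given for each gene. They leave out nuclei with more than 0.193% of UMIs in such markers, which kept 346 upper-band and 727 deeper-band nuclei. The newly formed oligodendrocyte and oligodendrocyte precursor lists were not among the markers of that filter. Those values therefore do not address these lists, although their sums were the highest. Intervals throughout are 95% intervals for counting error only, and ratios are on the log2 scale, deeper over upper band, so that 1 is a 2-fold higher level in the deeper band.

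ALPK1 was the member with the largest band ratio. The upper-band astrocyte-like nuclei held 25 ALPK1 UMIs, or 20.8 CPM (13.5 to 30.7), and the deeper-band nuclei held 183, or 92.2 CPM (79.3 to 106.6). The intervals do not overlap, and the level was 4.43-fold higher in the deeper band (log2 ratio 2.15, 1.54 to 2.81). Among the 6157 named genes with at least 50 UMIs over both sets of nuclei, ALPK1 stood second from the top. RERG, which encodes a RAS-related protein, stood above it with 2 and 63 UMIs (log2 ratio 4.25, 2.34 to 7.33). Below it came CRYAB, a small heat shock chaperone, at 1.84 (1.16 to 2.58), then LRIF1 at 1.68 and AP1S1 at 1.53. Of the 6157 genes, 41 (0.666%) were at least 2-fold higher in the deeper band, and 1 of the 3 members that passed the filter on low counts, ALPK1, was among them. In either direction 70 genes (1.14%) reached that size, 2 members included. Without the nuclei highest in other-class markers the ALPK1 log2 ratio was 2.26 (1.60 to 2.99).

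More deeper-band nuclei held ALPK1 UMIs, both 1 and 2 of them. In the upper band 19 of 387 nuclei had an ALPK1 UMI (4.91%, 2.98 to 7.56), and in the deeper band 141 of 806 did (17.5%, 14.9 to 20.3). Exactly 2 UMIs were found in 1 upper-band nucleus (0.258%, 0.00654 to 1.43) and 31 deeper-band nuclei (3.85%, 2.63 to 5.42). Nuclei with 3 or more were about as frequent in both bands, with 2 (0.517%, 0.0626 to 1.85) and 5 (0.620%, 0.202 to 1.44). No nucleus held more than 4. With every nucleus thinned to 1500 UMIs, which left out 14 and 53 shallower nuclei, the shares were 1.88% and 11.8%. Excitatory neuron-like nuclei served as a background for RNA that floats free in the droplets. Unthinned, at medians of 10764 and 10413.5 UMIs, ALPK1 was seen in 0.156% and 0.172% of them, and after thinning in 0 of 3181 and 0 of 3475.

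Summed over all nuclei outside the astrocyte-like class, ALPK1 stood at like levels in both bands. These nuclei held 83 and 84 UMIs, or 1.61 and 1.62 CPM (log2 ratio 0.01, -0.45 to 0.46). That sum mixes classes whose numbers of nuclei differ between bands, such as the oligodendrocyte-like class (927 and 2525 nuclei). Oligodendrocyte-like nuclei stood at 3.98 and 6.48 CPM from 9 and 34 UMIs (0.70, -0.39 to 1.95). Higher levels were found in 3 clusters that could not be named. A cluster with oligodendrocyte and astrocyte markers together (150 upper and 45 deeper-band nuclei) had 29.3 and 47.4 CPM (0.69, -0.51 to 1.78). A cluster led by the immune genes IL7R, IKZF1 and RUNX1 beside oligodendrocyte markers (162 and 140 nuclei) had 22.4 and 33.1 CPM (0.57, -0.24 to 1.37). A shallow cluster with microglia markers (48 and 66 nuclei) had 4 UMIs in each library. In oligodendrocyte-like nuclei and in these clusters the interval of the band ratio included 0. Intervals this wide show neither a difference nor equal levels. The share of a library's ALPK1 UMIs that lay in astrocyte-like nuclei was 23.1% for the upper and 68.5% for the deeper band.

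**Figure D1:**
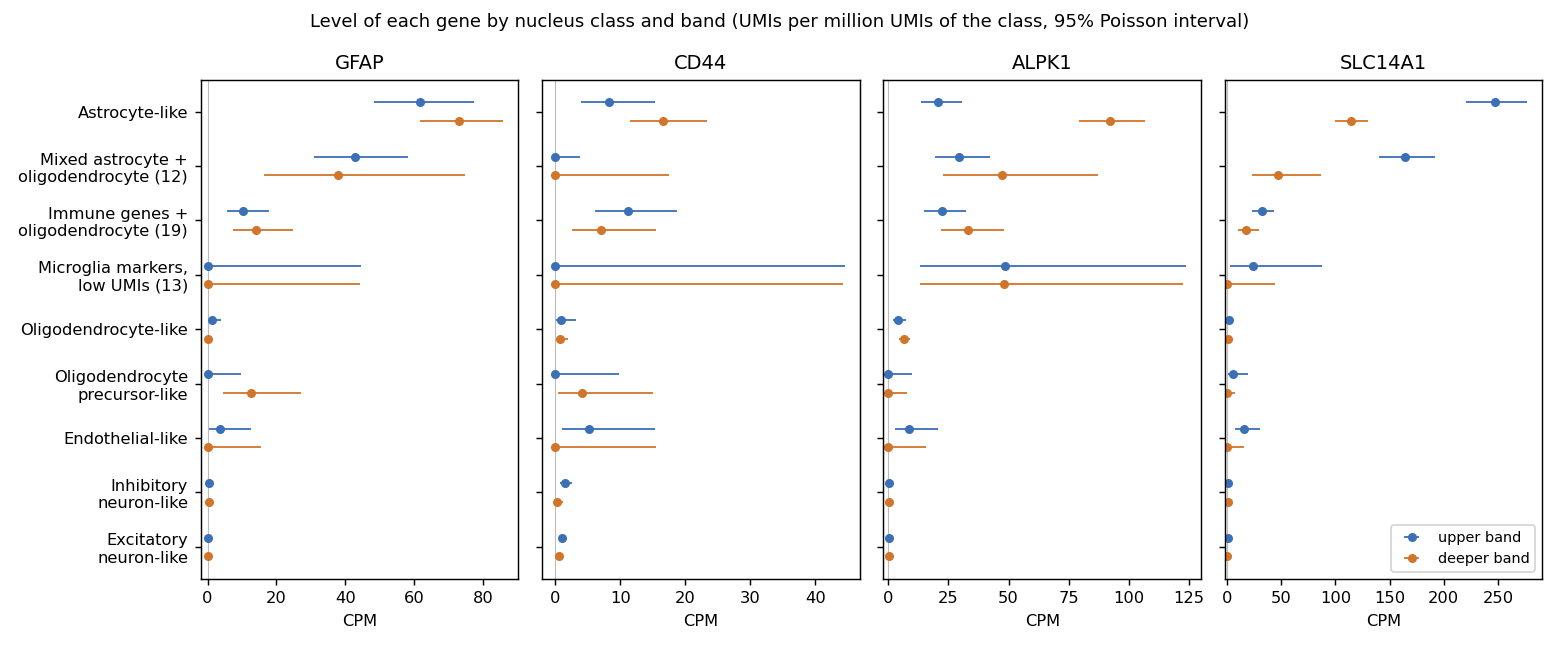
Level of GFAP, CD44, ALPK1 and SLC14A1 in CPM (x axis, a separate scale for each gene) by nucleus class (y axis), with the upper-band library in blue, the deeper-band library in orange and bars for 95% Poisson intervals. In astrocyte-like nuclei ALPK1 stands at 20.8 and 92.2 CPM and SLC14A1 at 247 and 114 CPM, with intervals that do not overlap, while those of GFAP and CD44 overlap.

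SLC14A1 differed in the opposite direction. The upper-band astrocyte-like nuclei held 297 SLC14A1 UMIs, or 247 CPM (220.1 to 277.2), and the deeper-band nuclei held 227, or 114 CPM (100.002 to 130.3). The level was 2.16-fold higher in the upper band (log2 ratio -1.11, -1.37 to -0.86), and the intervals do not overlap. This was rank 15 from the low end of the 6157 genes. CELF5 (29 and 22 UMIs, -1.12) lay just below it in that order and PTPRE (35 and 27 UMIs, -1.10) just above. Of all genes 29 (0.471%) were at least 2-fold lower in the deeper band, and SLC14A1 was the 1 member among them. Without the nuclei highest in other-class markers its log2 ratio was -1.03 (-1.30 to -0.77).

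For SLC14A1 nuclei with any UMI and nuclei with several were both more frequent in the upper band. Of the 387 upper-band nuclei 136 had a UMI (35.1%, 30.4 to 40.1), and of the 806 in the deeper band 170 had one (21.1%, 18.3 to 24.1). After thinning the shares were 23.9% and 14.2%, beside 0.0943% of upper-band and 0 of 3475 deeper-band excitatory neuron-like nuclei. Nuclei with 3 or more SLC14A1 UMIs numbered 39 of 387 (10.1%, 7.26 to 13.5) in the upper band and 10 of 806 (1.24%, 0.597 to 2.27) in the deeper band. The highest value in 1 nucleus was 8 in the upper and 4 in the deeper band, and nuclei with a UMI held 2.18 and 1.34 on average.

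**Figure D2:**
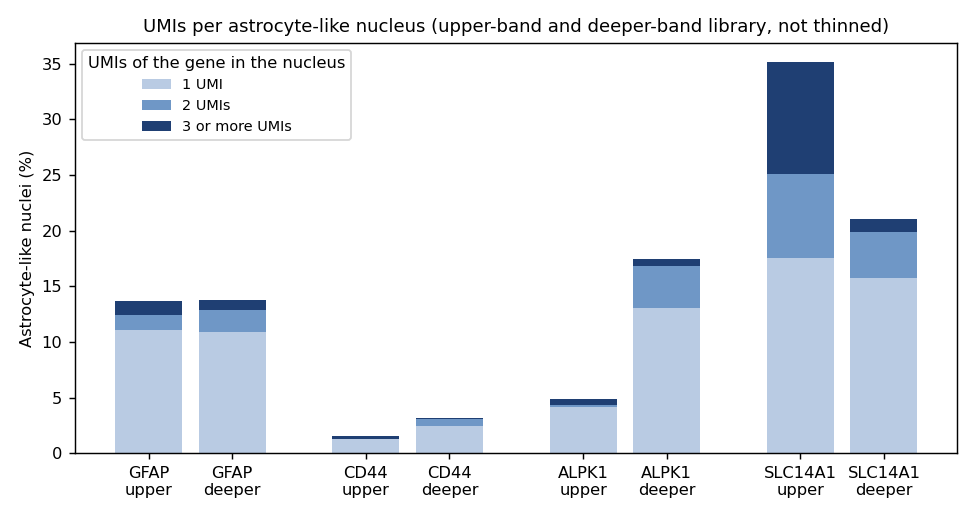
Percent of astrocyte-like nuclei (y axis, from 0) that held 1, 2 or at least 3 UMIs of each gene, by band (x axis), without thinning. The band of nuclei with 3 or more SLC14A1 UMIs is 10.1% in the upper and 1.24% in the deeper band, while ALPK1 nuclei with 1 UMI make up 4.13% and 13.03% and those with 2 make up 0.258% and 3.85%. ALPK1 nuclei with 3 or more UMIs make up 0.517% and 0.620%.

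SLC14A1 was also lower in the deeper band when all nuclei outside the astrocyte-like class were summed. They held 245 and 41 UMIs, or 4.75 and 0.788 CPM (log2 ratio -2.59, -3.10 to -2.11). That sum mixes classes whose numbers of nuclei differ between bands, and the classes in it were not uniform. In the mixed oligodendrocyte and astrocyte cluster it stood at 165 and 47.4 CPM from 157 and 10 UMIs (log2 ratio -1.80, -2.88 to -0.88). In the cluster led by immune genes it stood at 32.0 and 17.7 CPM, with an interval that included 0 (-0.85, -1.81 to 0.04). Excitatory neuron-like nuclei, the class used here as background, had a UMI in 0.719% and 0.201% of nuclei. They gave 26 and 7 UMIs, or 0.692 and 0.181 CPM, and there too the interval of the ratio lay below 0 (-1.94, -3.38 to -0.69). Inhibitory neuron-like nuclei held 5 UMIs in each library, or 0.584 and 0.805 CPM (0.46, -1.66 to 2.58). Endothelial-like nuclei held 9 UMIs in the upper band (15.8 CPM) and 0 in the deeper band, where 3 counts would be 12.7 CPM. SLC14A2, the neighbouring urea transporter gene that a counter could confuse with SLC14A1, had 1 UMI in the astrocyte-like nuclei of each library.

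GFAP in astrocyte-like nuclei had a band ratio whose interval included 0. Its 74 upper-band and 145 deeper-band UMIs in astrocyte-like nuclei come to 61.6 CPM (48.4 to 77.4) and 73.1 CPM (61.7 to 86.0). These intervals overlap, and that of the log2 ratio includes 0 (0.25, -0.17 to 0.67). GFAP ranked 1265 from the top of the 6157 genes, so a band difference of GFAP in these nuclei was not larger than counting error. Without the nuclei highest in other-class markers the ratio was 0.30 (-0.14 to 0.76). With the mixed cluster added it was 0.39 (0.03 to 0.75), and over all kept nuclei, at 2.67 and 3.43 CPM, it was 0.36 (0.04 to 0.69), and both intervals lie above 0. Within the mixed cluster itself (150 upper and 45 deeper-band nuclei) the GFAP ratio was -0.18 (-1.49 to 0.93). Over all nuclei the share of astrocyte-like nuclei, 6.15% and 9.84%, moves with the level, and its part was not tested. The share of nuclei with a GFAP UMI was 13.7% and 13.8%, and after thinning 9.12% and 8.50%. The thinned share in excitatory neuron-like nuclei was 0.0629% and 0.0863%. Of a library's GFAP UMIs, 52.5% in the upper and 78.4% in the deeper band lay in astrocyte-like nuclei, and the mixed cluster held a further 29.1% and 4.32%, at 43.0 and 37.9 CPM. In oligodendrocyte precursor-like nuclei of the deeper band all 6 GFAP UMIs came from 1 nucleus.

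CD44 was the member with the fewest UMIs. Upper-band astrocyte-like nuclei held 10, or 8.33 CPM (3.99 to 15.3), and deeper-band nuclei held 33, or 16.6 CPM (11.4 to 23.4). The intervals overlap, and that of the log2 ratio includes 0 (1.00, -0.06 to 2.18). With 43 UMIs in all it fell below the minimum of 50 and was not ranked. Without the nuclei highest in other-class markers the ratio was 1.02 (-0.09 to 2.28). With the mixed cluster added, which had no CD44 UMI in either library, it was 1.70 (0.64 to 2.88), with an interval above 0. The CD44 UMIs stayed the same there, and only the UMI totals changed, by 150 upper and 45 deeper-band nuclei. CD44 was seen in 6 of 387 nuclei (1.55%) and 26 of 806 nuclei (3.23%), and after thinning in 1.07% and 1.99%, beside 0.0314% and 0.0863% of excitatory neuron-like nuclei.

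CD44 was the least restricted of the members to astrocyte-like nuclei, which held 12.3% of its upper-band and 46.5% of its deeper-band UMIs. Excitatory neuron-like nuclei, far deeper in sequencing, held 39 and 24 UMIs, or 1.04 and 0.620 CPM (log2 ratio -0.74, -1.54 to 0.03). Inhibitory neuron-like nuclei held 13 and 2 UMIs, or 1.52 and 0.322 CPM (-2.24, -5.43 to -0.09). The cluster led by immune genes had 11.2 and 7.10 CPM, and the mixed cluster had no CD44 UMI in either library. Over all kept nuclei CD44 stood at 1.53 and 1.31 CPM, and the interval of that ratio included 0 (-0.22, -0.70 to 0.26).

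**Figure D3:**
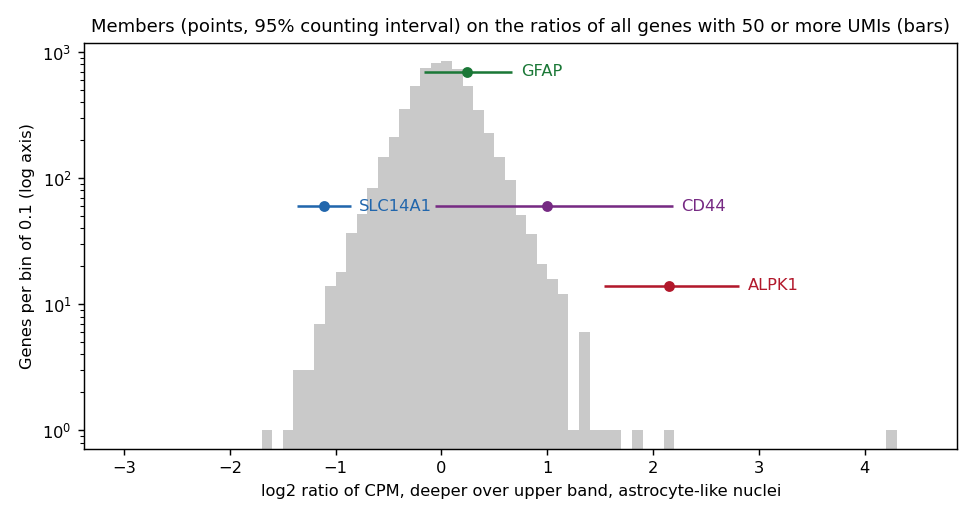
Log2 ratio of CPM, deeper over upper band, in astrocyte-like nuclei (x axis). Gray bars count the 6157 genes with at least 50 UMIs (y axis, log scale), and points with 95% counting intervals mark the 4 members at heights chosen for legibility. ALPK1 (2.15) and SLC14A1 (-1.11) lie outside the 5th and 95th percentiles of all genes (-0.53 and 0.55), GFAP (0.25) lies inside, and CD44 (1.00) has an interval that reaches below 0.

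Of the 33 CD44 UMIs in deeper-band astrocyte-like nuclei, 24 came from a small cluster that lay almost wholly in that library. It held 2 upper-band nuclei (0.517% of astrocyte-like nuclei, 0.0626 to 1.85) and 86 deeper-band nuclei (10.7%, 8.62 to 13.01). With 1 library per band, such a cluster may be a feature of that library. GFAP, CD44, ALPK1 and SLC14A1 were among its 10 leading genes, so their excess in it is a description. All 88 of its nuclei were also named astrocyte-like when the 4 genes were left out of the clustering. Whether they formed a cluster of their own in that run was not examined. Its nuclei had a median of 1732 UMIs, against 2481.5 in the other deeper-band astrocyte-like nuclei.

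Within the deeper band, CD44 stood at 155 CPM in the small cluster and 4.92 CPM in the other astrocyte-like nuclei, and 24 of the 33 UMIs lay in it. CD44 was seen in 20.9% of its nuclei and 1.11% of the others. GFAP stood at 239 and 59.0 CPM, with 27.9% and 12.1% of nuclei. ALPK1 stood at 239 and 79.8 CPM, with 31.4% and 15.8% of nuclei, and SLC14A1 at 336 and 95.6 CPM, with 44.2% and 18.3% of nuclei. All 4 members were thus higher in the cluster, SLC14A1 included, whose band difference ran the other way. The 2 upper-band nuclei of the cluster held 11 SLC14A1, 3 GFAP and 1 CD44 UMIs and no ALPK1 UMI. Among 4938 genes with at least 50 deeper-band UMIs and a UMI in both sets, a minimum CD44 did not reach, the largest excess was in RERG (330 and 6.56 CPM), GFRA1, a GDNF receptor (246 and 20.8 CPM), and SLIT2, a secreted guidance cue (2051 and 219 CPM). SPARC, a matrix glycoprotein, stood at 265 and 38.3 CPM, and HSPB1, a small heat shock protein, at 116 and 17.5 CPM. GFAP, SLC14A1 and ALPK1 ranked 28, 42 and 69 of these genes by this excess.

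Leaving the small cluster out separated the members. CD44 then had 9 UMIs in each library, or 7.52 and 4.92 CPM, and the sign of its log2 ratio turned (-0.61, -2.12 to 0.89). GFAP stood at 59.4 and 59.0 CPM (-0.01, -0.45 to 0.44). ALPK1 kept most of its difference, at 20.9 and 79.8 CPM (1.93, 1.31 to 2.61). SLC14A1 stood at 239 and 95.6 CPM (-1.32, -1.60 to -1.05). The intervals of ALPK1 and SLC14A1 were clear of 0 also in the main body of astrocyte-like nuclei, while the higher deeper-band values of CD44 and GFAP rested on the small cluster.

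**Figure D4:**
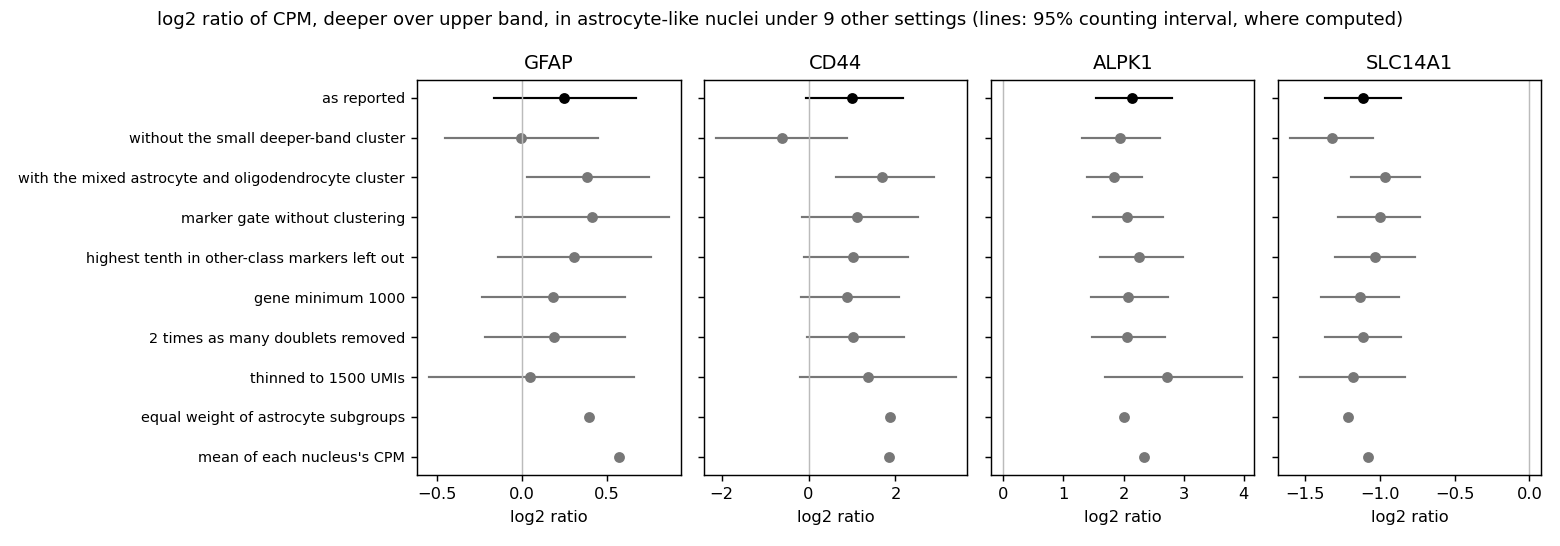
Log2 ratio of CPM, deeper over upper band, of each gene in astrocyte-like nuclei (x axis, a separate scale for each gene) as reported (black) and under 9 other settings (gray, y axis), with 95% counting intervals where computed. ALPK1 stays above 0 and SLC14A1 below 0 in every setting drawn, while CD44 goes from 1.00 to -0.61 and GFAP from 0.25 to -0.01 without the small cluster.

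The astrocyte-like nuclei were clustered again with the 4 members left out of the clustering genes, which gave 12 subgroups present in both libraries. Subgroups of 1 library are not replicates. ALPK1 was higher in the deeper band in 12 of 12 subgroups, a pattern met by 9 of the 6157 genes (0.146%). The counts were small, with 0 UMIs in the upper band in 3 subgroups, and the interval lay above 0 in 1 subgroup. SLC14A1 was lower in the deeper band in 12 of 12 subgroups, as were 7 of all genes (0.114%), and its interval lay below 0 in 6. With the subgroups weighted equally the log2 ratios were 2.01 for ALPK1, -1.22 for SLC14A1, 0.39 for GFAP and 1.88 for CD44.

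Some subgroups carried much of a member's RNA. The subgroup led by LEF1, a Wnt pathway transcription factor, and SPARC (53 and 59 nuclei) had SLC14A1 at 561 CPM (457.2 to 682.1) in the upper and 196 CPM (133.9 to 276.3) in the deeper band. It held 101 of the 297 upper-band SLC14A1 UMIs. GFAP was lower in the deeper band in this subgroup, at 133 CPM (85.5 to 198.5) and 36.7 CPM (13.5 to 79.9), from 24 and 6 UMIs. GFAP was higher in the deeper band in 8 subgroups and lower in 4, and in this one alone its interval was clear of 0.

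The subgroup led by FIGN, VAT1L and ADCY8 was a larger part of the upper-band nuclei, with 120 upper-band nuclei (31.0%) and 63 deeper-band nuclei (7.82%). There SLC14A1 stood at 163 and 66.7 CPM, ALPK1 had 10 and 8 UMIs, and CD44 had 7 UMIs in the upper and 0 in the deeper band. The subgroup led by RERG, LMCD1, COL4A5 and SLIT2 shifted the other way, with 14 upper-band nuclei (3.62%) and 125 deeper-band nuclei (15.5%), and took in 80 of the 88 nuclei of the small cluster. CD44 had 0 and 24 UMIs in it (98.8 CPM in the deeper band, 63.3 to 147) and ALPK1 had 0 and 48 (197.5 CPM, 145.7 to 261.9). The 14 upper-band nuclei allow up to 98.1 CPM for either gene, so a CD44 difference was not detectable there at this depth. SLC14A1 in this subgroup stood at 479 and 284 CPM, and the interval of that ratio included 0 (-0.75, -1.52 to 0.08).

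**Figure D5:**
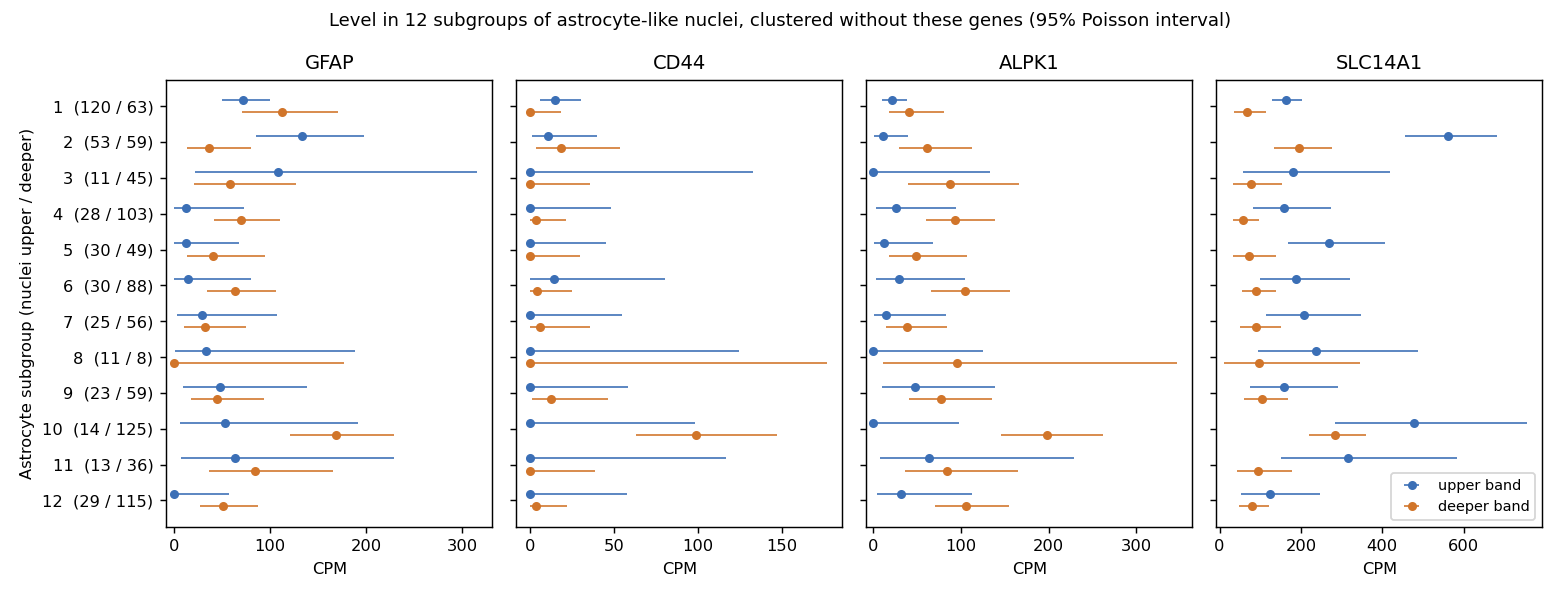
Level of each gene in CPM (x axis, a separate scale for each gene) in 12 subgroups of astrocyte-like nuclei (y axis, with the number of upper and deeper-band nuclei), clustered without the 4 genes, with 95% Poisson intervals. The deeper-band ALPK1 point lies to the right of the upper-band point in all 12 subgroups and the SLC14A1 point to the left in all 12, while most CD44 points sit at or near 0 outside subgroup 10.

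Few nuclei carried more than 1 of the members. No member was seen in 214 of 387 upper-band and 450 of 806 deeper-band nuclei. In the upper band SLC14A1 was seen in 52.8% of nuclei with a GFAP UMI, against 32.3% of those without GFAP. In the deeper band these shares were 24.3% and 20.6%. CD44 was seen in 8 of the 111 deeper-band nuclei with GFAP (7.21%), against 2.59% of those without. In the upper band it was seen in 4 of the 53 nuclei with GFAP (7.55%), against 0.599% of those without. ALPK1 and SLC14A1 showed little overlap beyond their own frequencies, since SLC14A1 was seen in 36.8% of upper-band nuclei with ALPK1 and 35.1% of those without, and in 23.4% and 20.6% in the deeper band. Nuclei with more UMIs in all show more of every gene, so shares after thinning are given too. SLC14A1 was then seen in 29.4% of upper-band nuclei with GFAP and 23.3% of those without. In the deeper band these thinned shares were 21.9% and 13.5%, a wider gap than before thinning. CD44 was then left in only 4 upper-band nuclei, and was seen in 0 of 34 with GFAP and 1.18% of those without. In the deeper band it was seen in 5 of 64 nuclei with GFAP (7.81%) and 1.45% of those without.

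By the rule for likeness, which takes the lower of the correlations in the 387 upper-band and 806 deeper-band nuclei over 5203 genes, SLC14A1 was most like SPARC (Pearson r 0.20), then AQP4, the astrocyte water channel, and FAM107A (both 0.13), ZFP36L1 and ZNF704 (both 0.12). CD44 was most like SLIT2 (0.17), SLC35F1 (0.15), DCLK2 (0.14), GFAP and ADAM12 (both 0.13). GFAP was most like DOK5 and AQP4 (both 0.12) and SLIT2 (0.11). ALPK1 was most like VCAN (0.11), USP54 and PDE3B (both 0.10). These values are weak, come from sparse counts and share each nucleus's depth, so no finding is drawn from them. Over 12 sums of class and library, the closest patterns across 11446 genes were NTSR2 for GFAP (0.977), IMPA2 for CD44 (0.965), PDGFRL for ALPK1 (0.977) and NWD1 for SLC14A1 (0.994). Those 12 points share libraries and are set mainly by which genes are high in astrocyte-like nuclei.

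Genes of the members' pathways were described from lists. Of 19 listed genes of the ALPK1 pathway, 9 had at least 50 UMIs, 0 were 2-fold higher or lower, and the median log2 ratio was -0.08, beside 0.003 for all 6157 genes. None of the 9 had an interval clear of 0, a property of 936 of all genes (15.2%). TIFA, the substrate of ALPK1, had 0 UMIs in the astrocyte-like nuclei of both libraries, where 3 counts would be 2.50 CPM in the upper and 1.51 CPM in the deeper band. NFKB1 stood at 155 and 168 CPM, and MAP3K7, the TAK1 kinase, at 95.8 and 75.6 CPM, both with intervals that included 0.

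Of 20 listed ligands and partners of CD44, 10 had at least 50 UMIs and 0 were 2-fold changed (median -0.02). SPP1, which encodes osteopontin, stood at 60.8 and 106 CPM (0.81, 0.42 to 1.21). It was far higher in oligodendrocyte-like nuclei, at 593 and 1010 CPM, and the part of oligodendrocyte RNA in its astrocyte value was not tested. VCAN, a hyaluronan-binding proteoglycan, stood at 132 and 187 CPM (0.51, 0.24 to 0.79). The hyaluronan synthase HAS2 had no UMI in astrocyte-like nuclei. Of 9 intermediate filament and linker genes, only DST, a cytoskeletal linker, had at least 50 UMIs (0.02, -0.05 to 0.09). VIM, the partner filament of GFAP in reactive astrocytes, had 4 and 3 UMIs in astrocyte-like nuclei.

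Of 12 genes of urea, water and ion transport, 5 had at least 50 UMIs and 1 was 2-fold lower in the deeper band (median 0.24). This was KCNQ3, a potassium channel subunit, at 50.8 and 20.7 CPM (-1.30, -1.91 to -0.70). KCNQ3 stood at 73.7 and 66.6 CPM in excitatory neuron-like nuclei. AQP4 stood at 110 and 130 CPM with an interval that included 0 (0.24, -0.07 to 0.56).

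Astrocyte identity genes were close to even between bands. Of 18 core genes, 12 had at least 50 UMIs and 0 were 2-fold changed (median 0.05), with 3 intervals above and 3 below 0. The 4 with most UMIs were SLC1A2 (log2 ratio 0.07), SLC4A4, a bicarbonate transporter (-0.13), GPC5, a glypican (-0.14), and SLC1A3, a glutamate transporter (0.38, from 1510 to 1964 CPM).

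Other genes of fibrous and reactive astrocytes were mostly too sparse to rank. Of 12 fibrous or white matter genes, 3 had at least 50 UMIs and 1, CRYAB, exceeded 2-fold, with 17.5 CPM in upper-band and 62.5 CPM in deeper-band nuclei. CRYAB was higher in the deeper band by a like ratio in excitatory neuron-like nuclei (3.19 and 11.4 CPM, log2 ratio 1.84) and in oligodendrocyte-like nuclei (68.5 and 265 CPM, 1.95), so its ratio was not confined to astrocytes. Of 18 reactive genes, 5 had at least 50 UMIs (median -0.02) and 1, HSPB1, was 2-fold higher in the deeper band (1.33, 0.40 to 2.38). Without the small cluster the HSPB1 ratio was 0.80 with an interval that included 0 (-0.19 to 1.89). C3, a complement gene of reactive astrocytes and microglia, fell below the minimum with 7 and 38 UMIs, or 5.83 and 19.2 CPM (1.72, 0.54 to 3.12). The other 4 ranked reactive genes, STAT3, LIFR, EMP1 and IL6ST, had log2 ratios from -0.09 to 0.06, with intervals that included 0.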

How the data were processed

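For each library the authors deposited a gene by barcode matrix of UMI counts, which are whole numbers and not normalized, per the file headers and the values. The header gives software version 3.1.0, and the submitters' processing notes name Cell Ranger 6.2.1 and 2.1.1. The genome build, annotation and use of intronic reads are not given in the sources used here, so no coordinates or sequences are printed.

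Nuclei with at least 500 genes were kept, and Scrublet (scanpy 1.11.5) removed 800 (11.3%) and 1419 (14.8%) as doublets. Both libraries were clustered together (2000 variable genes, 30 components, 15 neighbours, Leiden resolution 1, igraph 0.11.9), and 24 of 27 clusters were named from marker lists. One naming condition, which bars a cluster led by genes of another class, was added with the clusters in view. No correction for free RNA was made. CPM values are sums of UMIs over the nuclei of a class in 1 library relative to all their UMIs. Intervals are exact Poisson for sums, Clopper-Pearson for shares and conditional binomial for ratios (scipy 1.17.1). No p-value was computed. The script was tested on simulated data.

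The members and gene lists were chosen with earlier results of these data known. Named were the 4 members, list genes past a 2-fold ratio with an interval clear of 0, the 4 core genes with most UMIs, rank neighbours, and the genes most like each member. SPP1, VCAN, C3, STAT3, LIFR, EMP1, IL6ST, TIFA, NFKB1, MAP3K7, HAS2, VIM, DST and AQP4, and the leading genes of clusters, were named after their values were seen. Alternatives covered doublets, gene minimum, scaling, clustering, the definition of astrocyte nuclei and thinning depth.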

Additional observations from a re-analysis of the deposited data

How the results depend on the processing

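Over 15 alternatives each, the log2 band ratio in astrocyte-like nuclei ranged from 1.84 to 2.73 for ALPK1, from -1.32 to -0.96 for SLC14A1, from -0.01 to 0.57 for GFAP and from -0.61 to 1.88 for CD44. The value of CD44 that moved beyond its interval was that without the small deeper-band cluster (-0.61), which holds 24 of its 33 deeper-band UMIs. For thinned shares of nuclei with a UMI, 13 alternatives gave 1.72 to 3.06 for ALPK1, -1.03 to -0.58 for SLC14A1 and 0.09 to 2.08 for CD44. The GFAP share ratio was -0.10 as reported, 0.51 with the mixed oligodendrocyte and astrocyte cluster and 0.70 when thinned to 1000 UMIs, and 8 of its 13 alternatives had the opposite sign. The cause was not tested. List genes past a 2-fold ratio numbered 3 at a minimum of 50 UMIs and 5 at a minimum of 20. With the mixed cluster added, the intervals of the GFAP ratio (0.39), the CD44 ratio (1.70) and the CD44 share ratio (1.71, 0.17 to 3.25) lay above 0. That cluster, with 150 upper and 45 deeper-band nuclei, had no CD44 UMI, so the CD44 ratio changed through the UMI totals alone. The GFAP ratio within the cluster was -0.18 (-1.49 to 0.93). These intervals are therefore no sign of a higher level in the added nuclei. The alternatives that leave out the small cluster or add the mixed cluster were chosen after seeing the data. Median-of-ratios scaling moved every ratio by 0.009. No paired analysis was possible because each band has 1 library, and for the same reason no replicate could be left out. Depth limits CD44 most, with 43 UMIs over 1193 nuclei.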
